A study of Homo sapiens with 6 samples.

Results

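Cholesterol homeostasis was followed through 30 genes, 25 of cholesterol synthesis, its control and sterol transfer and 5 of sterol efflux and trafficking. They were taken by symbol from the 58243 genes listed for each library, and all 30 were found. The cells were CAL27, an established human line grown from a tongue squamous carcinoma, kept for 48 h in serum-containing medium with phosphate-buffered saline (PBS, the vehicle) or with 30 mM metformin, a biguanide that lowers blood glucose. There were 3 libraries a group, made with an mRNA kit, and the labels do not say whether these came from separate cultures, so p-values measure the spread between libraries, which may be technical. The model is 1 cell line at 1 dose and 1 time. Levels are FPKM as deposited, that is, fragment counts divided by transcript length and by the library's mapped fragments.

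Cells make cholesterol from acetyl-CoA through mevalonate, isoprenoid pyrophosphates, squalene and lanosterol. The transcription factor SREBP2 is held in the endoplasmic reticulum by its escort SCAP and the INSIG proteins while sterols are plentiful. When sterols run low it is carried to the Golgi, cleaved and moves to the nucleus, where it raises transcription of the synthesis enzymes and of lipoprotein uptake. Sterol excess is handled in the opposite way, since oxysterols activate the liver X receptors (LXR), which raise the exporters ABCA1 and ABCG1 and the ubiquitin ligase MYLIP. NPC1 and NPC2 pass cholesterol out of lysosomes, the route by which cholesterol from lipoproteins reaches the rest of the cell.

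Transcripts of the synthesis side were lower with metformin and those of lysosomal export and ABCG1 were higher. A gene was called when limma's two-sided moderated test on log2(FPKM + 1) gave a Benjamini-Hochberg adjusted p below 0.05 over the 13437 genes that averaged 1 FPKM or more. Of the 25 synthesis genes, all of which reached that level, 18 were called lower, 0 higher and 7 did not pass, against 25.2% of all tested genes called lower. Of the 5 efflux and trafficking genes, 3 were called higher and 0 lower, against 31.0% of all tested genes called higher. MYLIP did not pass and ABCA1 was below the level filter. ABCG1, 1 of the 3, reached that filter only through its metformin libraries. The median log2 change (metformin minus PBS) was -0.73 over the 25 genes, 0.40 over the 5, ABCA1 included, and 0.06 over all tested genes. In 22 of the 29 tested members PBS and metformin values did not overlap, against 64.4% of all tested genes, which is a high share in any list here. In every library the summed level of the 20 enzymes of the pathway told the groups apart, with 414, 412 and 412 FPKM in the PBS libraries and 266, 252 and 269 in the metformin libraries (412.7 ± 1.33 and 262.4 ± 9.02, SD, n = 3).

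**Figure D1:**
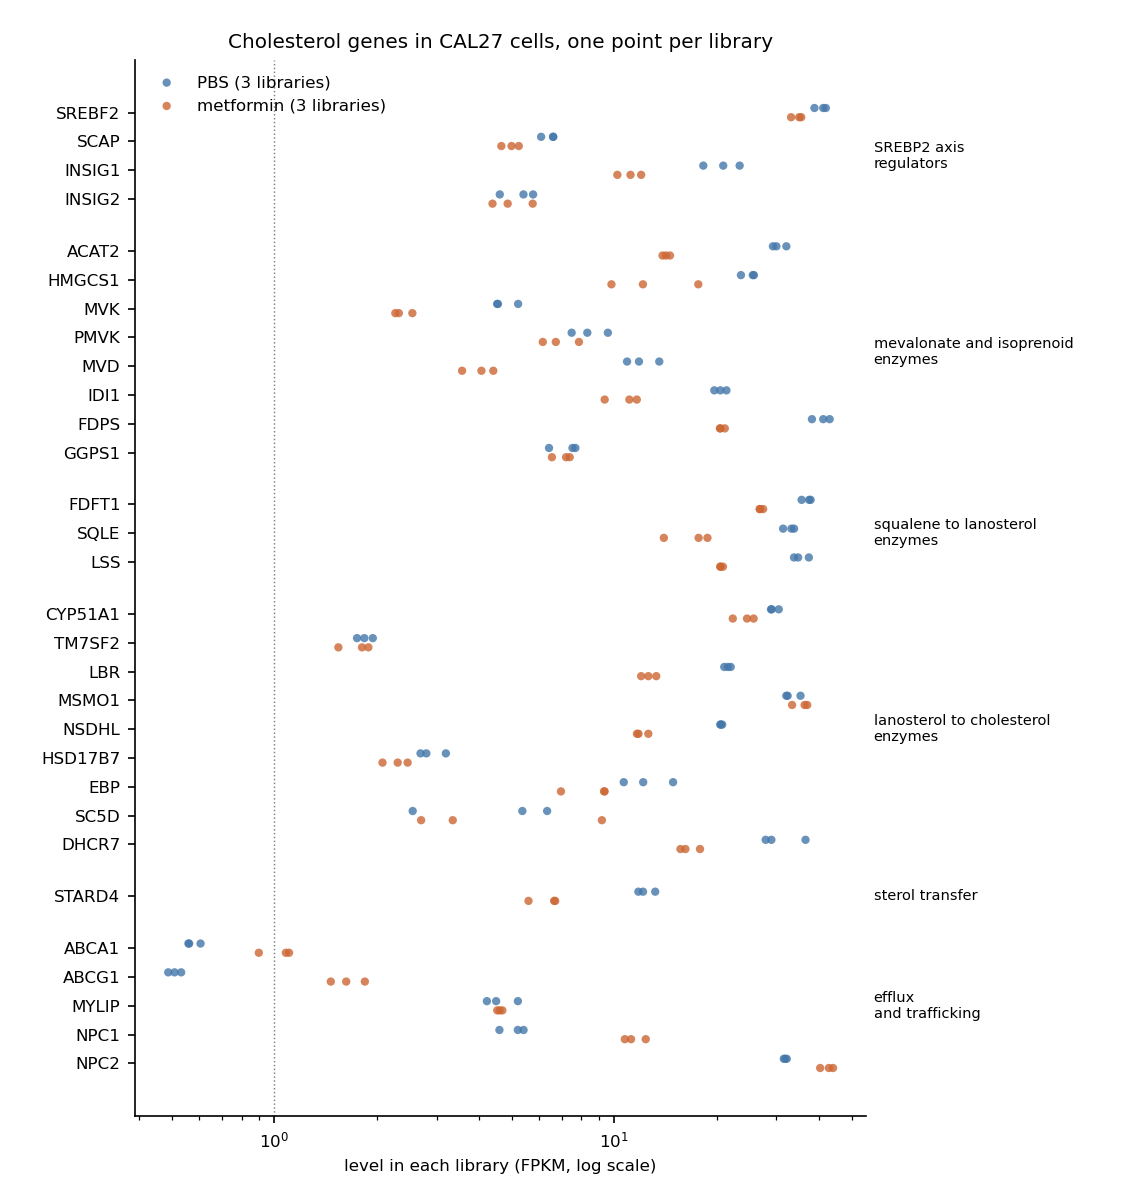
Level of each member in each library (FPKM, log axis), with PBS in blue and metformin in orange, grouped by role; the dotted line marks 1 FPKM. Most synthesis enzymes have their 3 metformin points left of the PBS points, PMVK, GGPS1, TM7SF2, MSMO1 and SC5D do not, and ABCA1, ABCG1, NPC1 and NPC2 have theirs to the right.

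The libraries were alike in size. Estimated from the spacing of low values, each held between 7810000 and 8810000 counted fragments, and between 12982 and 13613 genes reached 1 FPKM. All of 9 squamous epithelial markers averaged at least 1 FPKM. Their summed level was 1290 to 1370 with PBS and 752 to 775 with metformin. KRT5 (means 355 and 52.5) and KRT14 (246 and 12.9) made up most of the fall. KRT6A, KRT17 and TP63 were also called lower. In contrast, CDH1 (51.45 and 60.99), EPCAM (102.6 and 129.6) and DSG3 (9.01 and 25.1) were called higher, and SFN (310 and 315) did not pass. Markers of other cells were low: the sums were 1.54 to 2.34 and 2.49 to 2.74 for 6 fibroblast genes, and 2.25 to 2.95 and 3.62 to 4.93 for 6 leukocyte genes. For 4 endothelial genes they were 5.93 to 6.87 and 2.01 to 2.32, nearly all of it CDH5, while KDR was listed at 0 throughout. The part of these marker shifts in the results was not tested. In bulk samples of 1 cell line, fewer cells with a transcript and less of it per cell cannot be told apart.

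Upstream sequences of some members are shown first, each with the reason for its choice, and no member called higher is among them. RefSeq's promoter table (GRCh38.p14) held 26 of the 30 members, and the 250 bases before each start were searched on both strands for a sterol regulatory element (TCACNCCAC), the CCAAT box bound by NF-Y, a partner of SREBP (CCAAT, or ATTGG on the other strand), and a direct repeat of AGGTCA spaced by 4 bases, the form bound by LXR. The exact element was found in 1 member, SREBF2, and in 0.883% of all 35116 promoters. The exact repeat was found in 0 of the 26 matched members and in 0.0142% of promoters. It is that rare in any promoter, and looser forms were not searched, so the 0 says little about LXR. ABCG1, ACAT2, FDFT1 and SQLE had no match and were not searched. At least 1 CCAAT box stood upstream of 17 of 22 matched synthesis members and 2 of 4 efflux members, against 32.0% of all promoters, and at least 2 stood upstream of 10 of 22 and 2 of 4, against 9.53%. A gene with several starts was counted if any of its starts had the box, whereas the shares of all promoters count each promoter separately. The 26 matched members had 35 promoters, so the counts and the shares differ in unit. Of the matched synthesis members with 0 boxes, LBR, CYP51A1 and SCAP were called lower, and INSIG2 and PMVK did not pass. Whether the boxes go with the falls was not tested. The stretches below leave out bases that GENCODE places in an exon of a protein-coding gene. Capitals mark the sterol element or a CCAAT box in either orientation, and the overlapping pair in NSDHL is read as 1 run. SREBF2 is shown for its element (chr22:41832855-41833078, plus strand), and MVD (chr16:88663162-88663341, minus strand) and NSDHL (chrX:152830813-152830966, plus strand) for clear falls. MSMO1 (chr4:165327419-165327622, plus strand) is shown as an enzyme gene that has the boxes and did not fall, and ABCA1 (chr9:104928238-104928405, minus strand) as an exporter gene with neither.
SREBF2: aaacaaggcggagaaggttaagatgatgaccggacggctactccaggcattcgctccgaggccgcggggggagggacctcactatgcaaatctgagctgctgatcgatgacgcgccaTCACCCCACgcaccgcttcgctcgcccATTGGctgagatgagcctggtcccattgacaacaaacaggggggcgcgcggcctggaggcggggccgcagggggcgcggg
MVD: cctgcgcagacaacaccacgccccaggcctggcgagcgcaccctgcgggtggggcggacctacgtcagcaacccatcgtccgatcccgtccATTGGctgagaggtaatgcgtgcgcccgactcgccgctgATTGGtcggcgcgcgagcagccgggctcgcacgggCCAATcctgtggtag
NSDHL: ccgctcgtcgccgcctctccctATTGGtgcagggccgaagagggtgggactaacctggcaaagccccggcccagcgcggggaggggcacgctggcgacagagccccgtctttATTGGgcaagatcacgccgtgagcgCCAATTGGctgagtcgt
MSMO1: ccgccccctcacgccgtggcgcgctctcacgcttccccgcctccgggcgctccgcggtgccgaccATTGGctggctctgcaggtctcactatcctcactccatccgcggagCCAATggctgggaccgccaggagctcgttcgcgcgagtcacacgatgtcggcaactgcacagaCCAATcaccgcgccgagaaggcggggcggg
ABCA1: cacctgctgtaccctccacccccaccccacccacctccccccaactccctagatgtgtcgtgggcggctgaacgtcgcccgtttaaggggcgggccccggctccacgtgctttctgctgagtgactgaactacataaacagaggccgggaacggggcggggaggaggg
MVD carried 3 boxes in these bases, NSDHL 4 and MSMO1 3. NSDHL and MSMO1 each had 1 more box nearer the start, in bases that are not shown. A match is a description of letters, and binding was not measured.

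Among the regulators, the transcript of the feedback protein INSIG1 fell most. INSIG1 (ENSG00000186480.12, chromosome 7, 155297776 to 155310235 in GRCh38), itself a target of SREBP2, had 23.4, 20.9 and 18.3 FPKM with PBS and 10.2, 12.0 and 11.2 with metformin. Every metformin library lay below every PBS library, a 1.88-fold fall (log2 change -0.85, SE 0.10, limma adjusted p = 0.000527). Its paralogue INSIG2, which also holds SCAP in the endoplasmic reticulum, had 5.77, 4.60 and 5.41 with PBS and 5.75, 4.86 and 4.38 with metformin. The INSIG2 groups overlapped and the gene did not pass (log2 change -0.06, limma adjusted p = 0.658). The ratio of the INSIG1 level to the INSIG2 level was therefore 4.05, 4.55 and 3.38 with PBS and 1.77, 2.47 and 2.55 with metformin. SREBF2, the SREBP2 gene, had 41.9, 41.2 and 38.8 FPKM with PBS and 33.2, 35.0 and 35.5 with metformin. That was a small fall without overlap, 1.18-fold (log2 change -0.23, SE 0.05, limma adjusted p = 0.0106), and it was lost with quantile scaling (adjusted p = 0.0750). The escort gene SCAP fell 1.30-fold, from 6.44 ± 0.299 to 4.96 ± 0.293 (SD, n = 3; log2 change -0.32, limma adjusted p = 0.00844).

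Enzymes that turn acetyl-CoA into isoprenoid pyrophosphates were called lower in 6 of 8 cases, against 25.2% of all tested genes. Their median log2 change was -0.90, and that of all tested genes 0.06. MVD (ENSG00000167508.11, chromosome 16, 88651935 to 88663161), the decarboxylase that makes isopentenyl pyrophosphate, had the largest fall of the 30 members. Its levels were 10.9, 13.6 and 11.8 FPKM with PBS and 3.57, 4.07 and 4.41 with metformin, with a wide gap between the lowest PBS and the highest metformin library. The mean fell 3.02-fold (log2 change -1.38, SE 0.10, limma adjusted p = 6.5e-05). ACAT2, the cytosolic thiolase that starts the route, went from 29.3, 32.1 and 30.0 to 13.9, 14.2 and 14.6. FDPS, which builds farnesyl pyrophosphate, went from 43.0, 41.2 and 38.2 to 20.5, 20.5 and 21.2. The metformin libraries of these genes were close to each other and well below PBS, with log2 changes of -1.05 and -0.94. HMGCS1, the synthase for hydroxymethylglutaryl-CoA, behaved less evenly, with 25.6, 23.6 and 25.8 with PBS against 12.1, 9.81 and 17.7 with metformin. Its groups did not overlap, but metformin replicate 3 lay nearer PBS than the other two did (log2 change -0.91, SE 0.19, limma adjusted p = 0.00586). IDI1, the isomerase of isopentenyl pyrophosphate, fell 1.92-fold from 20.5 ± 0.844 to 10.7 ± 1.19, and MVK, mevalonate kinase, 2.00-fold from 4.76 ± 0.392 to 2.38 ± 0.147 (SD, n = 3).

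The remaining pair in that stretch did not pass. PMVK, phosphomevalonate kinase, which acts between MVK and MVD, had 8.33, 7.49 and 9.58 FPKM with PBS and 6.16, 7.87 and 6.73 with metformin, with overlap between the groups (log2 change -0.26, limma adjusted p = 0.0954). Without metformin replicate 2, the highest of its group, PMVK passed (adjusted p = 0.0494). GGPS1, which extends farnesyl to geranylgeranyl pyrophosphate for protein prenylation and so lies off the sterol branch, had 7.54, 6.43 and 7.69 against 6.56, 7.40 and 7.22. Its change was -0.03 (SE 0.09, limma adjusted p = 0.812), and the sign turned in 3 of the 6 comparisons that left out a library.

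All 3 enzymes from farnesyl pyrophosphate to lanosterol were called lower, against 25.2% of all tested genes. SQLE, squalene epoxidase, a rate-limiting step of the sterol branch, had 31.4, 33.8 and 33.2 FPKM with PBS and 18.8, 17.7 and 14.0 with metformin, a 1.95-fold fall without overlap (log2 change -0.93, SE 0.11, limma adjusted p = 0.00044). LSS, which closes the ring to form lanosterol, had 37.4, 34.8 and 33.8 against 20.5, 20.5 and 20.9, a 1.71-fold fall. FDFT1, squalene synthase, fell less, 1.37-fold, from 35.6, 37.8 and 37.5 to 27.4, 26.9 and 26.8 (log2 change -0.44, SE 0.05). Its 3 metformin libraries were tightly grouped, so that the small change was large beside the spread.

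From lanosterol to cholesterol the enzymes were uneven: 5 of 9 were called lower, 4 did not pass, and the median log2 change was -0.28. Among all tested genes 25.2% were called lower and the median was 0.06. DHCR7, the reductase of the last step from 7-dehydrocholesterol, had 36.6, 29.01 and 27.9 FPKM with PBS and 16.2, 15.7 and 17.9 with metformin, a 1.88-fold fall (log2 change -0.86, SE 0.11, limma adjusted p = 0.000693). NSDHL, a dehydrogenase of C-4 demethylation, had 20.5, 20.6 and 20.8 against 12.6, 11.7 and 11.8, the PBS libraries being nearly equal (log2 change -0.73, SE 0.05, limma adjusted p = 6.77e-05). LBR, a nuclear envelope protein that is also a sterol reductase, fell alike, 1.71-fold from 21.6 ± 0.475 to 12.6 ± 0.648. TM7SF2, the other reductase of that step, was low and did not pass, with 1.75, 1.84 and 1.95 against 1.54, 1.81 and 1.89. CYP51A1, the lanosterol demethylase, fell only 1.22-fold, from 29.1, 28.9 and 30.5 to 24.6, 22.3 and 25.7 (log2 change -0.28, limma adjusted p = 0.0106). EBP, the sterol isomerase, was called lower at 10.7, 12.2 and 14.9 against 6.97, 9.37 and 9.33 (log2 change -0.51, limma adjusted p = 0.0251). The EBP call was lost without PBS replicate 2 (adjusted p = 0.0571), without PBS replicate 3 (0.0664) and without metformin replicate 1 (0.0653), and also with no level filter (0.0608).

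MSMO1 (ENSG00000052802.12, chromosome 4, 165327623 to 165343160), the methylsterol oxidase that works beside NSDHL in removing the C-4 methyl groups, did not follow the other abundant enzymes. It had 32.1, 35.3 and 32.4 FPKM with PBS and 37.0, 33.4 and 36.3 with metformin. The groups overlapped (log2 change 0.09, SE 0.06, limma adjusted p = 0.255). With quantile scaling it was called higher (0.18, adjusted p = 0.0478). At 34.4 FPKM over the 6 libraries it was the most abundant of the 7 synthesis members that did not pass. HSD17B7, the ketoreductase of the same demethylation step, had 2.80, 3.20 and 2.69 against 2.08, 2.31 and 2.47, without overlap but just outside the threshold (log2 change -0.25, limma adjusted p = 0.0581). It passed with median-of-ratios scaling (adjusted p = 0.0352), with quantile scaling (0.0109) and in limma without the trend (0.0400). SC5D, the lathosterol desaturase, spread more between replicates than between groups, with 6.35, 2.55 and 5.37 against 9.20, 2.70 and 3.35 (log2 change -0.01, SE 0.43). No direction can be read for SC5D from these libraries. STARD4, a soluble carrier that moves sterol between membranes and an SREBP2 target, followed the enzymes that fell, from 13.2, 12.2 and 11.8 to 6.70, 5.59 and 6.65 (log2 change -0.87, SE 0.09, limma adjusted p = 0.000216).

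**Figure D2:**
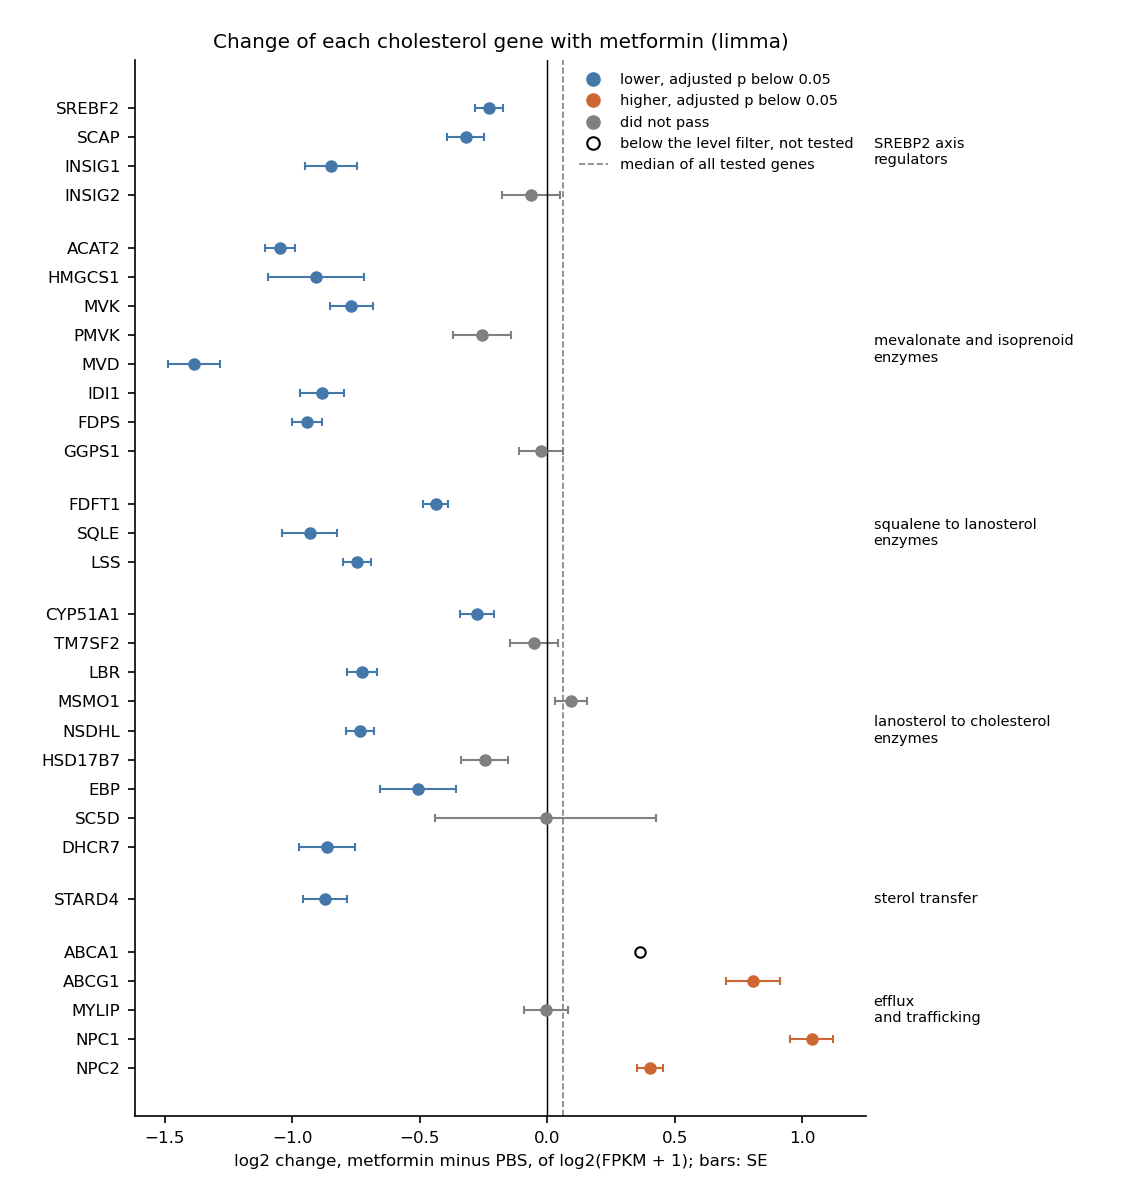
Log2 change (metformin minus PBS, log2(FPKM + 1) scale) of each member with its SE, grouped by role; blue was called lower, orange higher, grey did not pass, and the open circle was not tested. The 18 blue points run from -0.23 (SREBF2) to -1.38 (MVD) and the 3 orange points from 0.40 (NPC2) to 1.04 (NPC1).

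On the efflux and trafficking side, NPC1 had the largest rise on the log2 scale. NPC1 (ENSG00000141458.12, chromosome 18, 23506184 to 23586898), the lysosomal membrane transporter, had 5.41, 4.59 and 5.20 FPKM with PBS and 12.4, 11.2 and 10.7 with metformin, a 2.26-fold rise without overlap (log2 change 1.04, SE 0.08, limma adjusted p = 9.27e-05). NPC2, the soluble protein that hands cholesterol to NPC1 in the lysosome, had 32.2, 31.8 and 31.6 against 44.0, 42.8 and 40.4. It was the more abundant of the pair in every library and rose 1.33-fold (log2 change 0.40, SE 0.05, limma adjusted p = 0.000685). ABCG1 (ENSG00000160179.18, chromosome 21, 42199689 to 42297244), which exports sterol to high-density lipoprotein, had 0.487, 0.508 and 0.531 with PBS and 1.47, 1.63 and 1.85 with metformin. That is 3.23-fold higher, the largest fold of the members that rose, at low levels (log2 change 0.81, SE 0.11, limma adjusted p = 0.000774). ABCG1 reached the level filter, with a mean of 1.08 FPKM, only through the metformin libraries, so its call among tested genes is not independent of its difference.

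ABCA1, which exports cholesterol to lipid-poor apolipoprotein A-I, had 0.561, 0.606 and 0.558 FPKM with PBS and 1.08, 0.899 and 1.10 with metformin. The groups did not overlap and the means differed 1.79-fold, giving 0.36 as log2 change, but its mean of 0.802 FPKM kept it out of the tested genes. With the filter lowered to 0.1 FPKM, it was called higher (limma adjusted p = 0.0178), as it was with no filter (adjusted p = 0.0360). MYLIP, the LXR-induced ligase that degrades lipoprotein receptors, had 5.21, 4.49 and 4.22 against 4.60, 4.69 and 4.53. The metformin values lay inside the PBS range (log2 change -0.01, SE 0.08, limma adjusted p = 0.962), and with a fixed sum per library the change was 0.02. Of the LXR-responsive members, ABCA1 and ABCG1 were thus higher and MYLIP showed no such difference, and the difference between these changes was not tested.

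**Figure D3:**
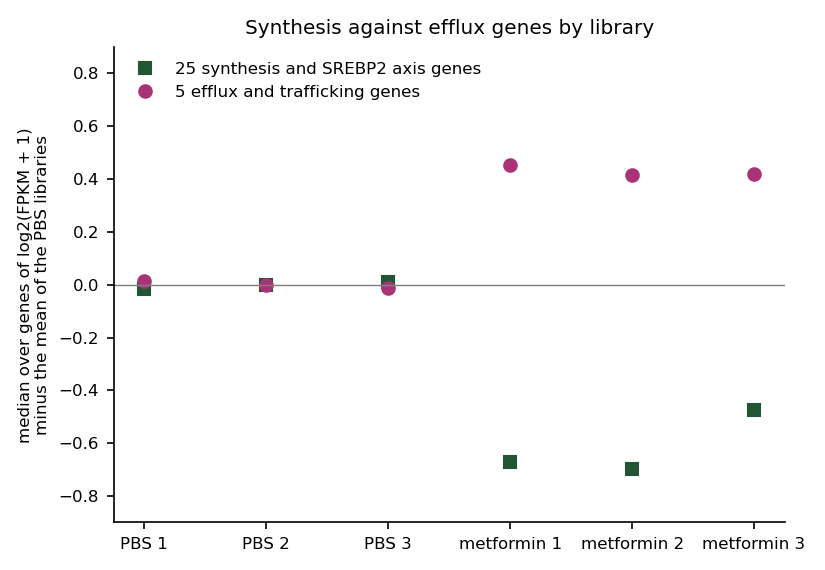
Median over genes of log2(FPKM + 1) minus the mean of the PBS libraries, in each library, for the 25 synthesis and SREBP2 axis genes (squares) and the 5 efflux and trafficking genes (circles). The metformin libraries lie at -0.67, -0.70 and -0.48 for the first and at 0.46, 0.42 and 0.42 for the second, and metformin replicate 3 has the smallest fall.

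Exon bases of 11 of the 30 members are also bases of another expressed gene. Whether counting used strand is not given in the sources; without it, fragments of such pairs cannot be told apart. In HMGCS1 the antisense gene AC114947.2 shares 703 bases (15.0% of the exon bases of HMGCS1) and went from a mean of 16.1 to 5.22 FPKM. FDPS shares 18.6% of its exon bases with RUSC1-AS1 (4.54 and 2.82), ACAT2 9.24% with TCP1 (53.6 and 40.0), NPC1 5.98% with RMC1 (4.49 and 6.32) and NPC2 3.75% with ISCA2 (5.07 and 4.54). MVK shares 4.72% with its neighbour MMAB, which went from 6.60 to 3.21. Among the 19 members that share no exon bases, 11 were called lower and 1, ABCG1, higher. Of all tested genes 25.2% were called lower and 31.0% higher. ABCG1 reached the level filter only through its metformin libraries. Pseudogenes named after FDPS, CYP51A1 and HSD17B7 were all below 1 FPKM in both groups, with HSD17B7P2 the highest at 0.416 and 0.338.

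Neighbouring steps were counted in 6 further lists, which were written with earlier results of these data known and have no test as lists. Their counts stand against 25.2% of all tested genes called lower and 31.0% called higher. Receptors and adaptors for lipoproteins went down in 5 of 6 tested genes and up in 1. The median change was -0.64 on the log2 scale. DAB2, the 1 gene up, averaged 0.890 FPKM with PBS and 1.31 with metformin. It reached the level filter only through its metformin values, and is named after its value was seen. SCARB1, the scavenger receptor that takes up sterol from high-density lipoprotein, fell 2.25-fold from 15.9 ± 0.849 to 7.07 ± 0.0284 (log2 change -1.07, limma adjusted p = 2.42e-05). LRP1, a large endocytic receptor, had 1.68 ± 0.241 with PBS and 0.493 ± 0.0615 with metformin (SD, n = 3), and reached the level filter only through its PBS values. Genes that store sterol as esters or move it inside the cell fell in 5 of 9 cases and rose in 1 (median -0.22). TMEM97, an SREBP2 target that binds NPC1, fell 2.63-fold from 9.17 ± 2.98 to 3.49 ± 1.10, and LIPA, the lysosomal lipase that frees cholesterol from lipoprotein esters, 1.66-fold from 28.5 ± 4.19 to 17.1 ± 0.464. TMEM97 shares 11.9% of its exon bases with IFT20. LIPA thus had lower levels where its lysosomal neighbours NPC1 and NPC2 had higher ones.

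The genes that process SREBP or degrade pathway proteins were called higher in 6 of 12 cases and lower in 2, 4 did not pass, and the median was 0.14, against 31.0% of all tested genes called higher and a median of 0.06. The genes called lower had the largest changes of the list: SREBF1, the gene of SREBP1, fell 2.64-fold from 26.9 ± 1.69 to 10.2 ± 0.194 (limma adjusted p = 1.16e-05), and ERLIN1, a sterol-binding protein of the endoplasmic reticulum, 1.65-fold from 21.6 ± 0.398 to 13.2 ± 0.513. Of 13 genes that use isoprenoids, 5 fell, 1 rose and 7 did not pass (median -0.03), beside 25.2% lower and 31.0% higher among all tested genes. The largest falls there were in ubiquinone synthesis, PDSS1, which makes the polyprenyl tail, from 5.57, 6.54 and 5.51 to 1.64, 1.40 and 1.45 FPKM, and COQ2, which attaches it, from 6.08, 5.87 and 5.47 to 1.65, 2.51 and 2.42. PDSS1 shares 10.5% of its exon bases with ABI1 (7.66 and 6.32). Both genes of ubiquinone synthesis were lower in every metformin library (log2 change -1.46 and -1.10), and PDSS1 exceeded MVD in the size of its log2 change. In the LXR, RXR and oxysterol list, 3 of 7 tested genes were lower and 1 higher, and the median of 0.07 was close to that of all tested genes, 0.06. The higher gene, NR1H2, which encodes LXR-beta, rose 1.44-fold from 11.8 ± 2.11 to 16.9 ± 0.672 and is named after its value was seen. LPCAT3, a known LXR target, fell 1.60-fold from 13.8 ± 0.417 to 8.66 ± 0.322, while ABCA1 and ABCG1 were higher. LPCAT3 shares 65.6% of its exon bases with EMG1. Fatty acid synthesis genes, the SREBP1 side of the same system, fell in 6 of 9 cases and rose in 0 (median -0.30), led by FASN (log2 change -1.77) and the desaturase SCD (-1.40). The difference between these lists and the cholesterol genes was not tested.

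**Figure D4:**
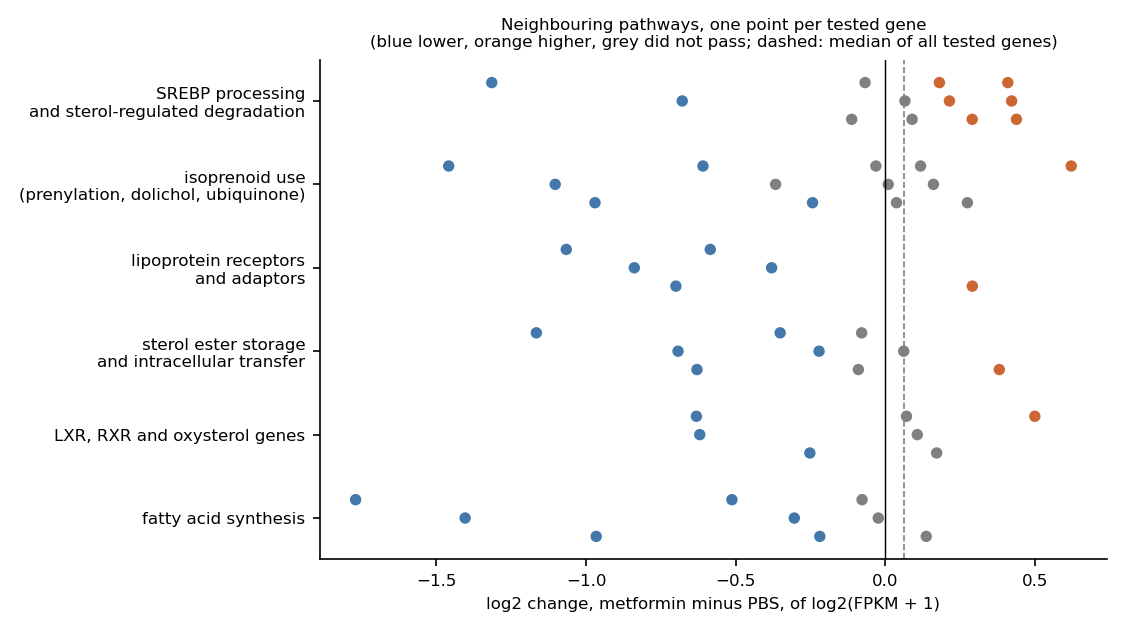
Log2 change (metformin minus PBS, log2(FPKM + 1) scale) of each tested gene of the 6 further lists; blue was called lower, orange higher and grey did not pass. The dashed line marks the median of all tested genes, 0.06.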

How the data were processed

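Levels were measured by mRNA sequencing in 3 PBS and 3 metformin libraries. Each library has a table of FPKM by gene from the authors, per the file headers; the build was GRCh38 per the submitters' processing notes. The aligner, counter, annotation and strand setting: not given in the sources used here. FPKM depends on the total of mapped fragments, so abundant genes move the rest, and since all 37 mitochondrially encoded genes read 0, a 0 was not taken as absence. Symbols came from GENCODE 29 by identifier without version (57980 of 58243 named).

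Genes averaging 1 FPKM or more (13437) were fitted as log2(FPKM + 1) with limma 3.58.1 in R 4.3.3 (intensity trend, group as the only term) and Benjamini-Hochberg adjustment over all of them. The fit was checked on simulated data. Folds are ratios of group means; log2 changes understate those of low genes. All 30 members are named, and 2 called genes of each further list with the largest changes, except 1 that is not reported here. The members and lists were chosen with earlier results of these data known. Alternatives were other pseudocounts, filters and scalings, a replicate block, other limma priors, members without shared exons, and each library left out, with the same genes tested. Other work used Python 3.11.15, pandas 2.3.3 and matplotlib 3.10.9.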

Additional observations from a re-analysis of the deposited data

How the results depend on the processing

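Of the 29 tested members, 19 kept their direction and their side of the threshold in all 17 alternatives or as many as tested them, and of 487 such comparisons 464 did so, 5 lost a call, 5 gained one and 13 changed sign. Leaving out a library gave 17 to 19 members lower and 3 higher, 6663 to 6886 genes called in all, and a median of the efflux and trafficking genes from 0.374 to 0.435. That median was 0.736 and 0.822 with pseudocounts of 0.1 and 0.01, and 0.341, 0.476 and 0.427 with median-of-ratios, quantile and fixed-sum scaling. Over ABCA1, ABCG1 and MYLIP, the efflux and trafficking members that share no exon bases, it was 0.363. That is the change of ABCA1 alone, which was below the level filter. Among the 19 members without shared exon bases, 11 were lower and 1, ABCG1, higher, beside 25.2% lower and 31.0% higher among all tested genes. These counts cover fewer members. NPC1 and NPC2, both called higher in the full list, share exon bases and are not among them. With a filter of 5 FPKM, 4738 of 7388 tested genes were called. The median change of all tested genes was 0.0613 as deposited and 0.0122, -0.00718 and 0.083 with median-of-ratios, quantile and fixed-sum scaling. The sign changes were all in genes that did not pass. Leaving out each library gave ranges of -0.0975 to 0.0189 for GGPS1, -0.152 to 0.0113 for INSIG2, -0.0897 to 0.00271 for TM7SF2, -0.454 to 0.277 for SC5D and -0.0591 to 0.0657 for MYLIP. GGPS1 was above 0 (0.00269, 0.0153 and 0.0189) without PBS replicate 1, PBS replicate 3 and metformin replicate 1, INSIG2 without metformin replicate 3, and TM7SF2 without metformin replicate 1. SC5D had 0.0153 with a fixed sum and 0.203, 0.1, 0.277 and 0.161 without PBS replicates 1 and 3 and metformin replicates 2 and 3, and MYLIP 0.0171 with a fixed sum and 0.0657 and 0.00471 without PBS replicate 1 and metformin replicate 3. The cause was not tested. With the replicate block, 18 members were lower, 3 higher and 7139 genes called in all, and no member changed its call. The deviations of same-numbered libraries correlated at only -0.000355, 0.0304 and -0.0105. No shared effect of the replicate number was thus seen, but this cannot tell whether same-numbered libraries were prepared together. The number of libraries and the low levels of ABCA1 and ABCG1 limit what could be detected.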
